A study of Mus musculus with 37 samples.

Results

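A group of 8 secreted factor genes was described in brown adipose tissue, namely Lep, Adipoq, Retn, Fgf21, Nrg4, Bmp8b, Igf1 and Gdf15. They were chosen by gene symbol, and each of the 8 had 1 probe set on the array, out of 24657 gene symbols in the table. The tissue came from 35 BXD strains, which are recombinant inbred mice derived from an intercross of C57BL/6J and DBA/2J, and from both parental strains. Each strain was represented by 1 Affymetrix MoGene 2.0 array hybridised with RNA pooled from about 5 mice. All mice were males aged 29 weeks, kept on a chow diet, fasted overnight and perfused before the fat was taken. No strain was treated or engineered, so the strains differed by inherited genotype, and the pooling left no replicate within a strain. All spread and all p-values below were therefore taken over strains, and a strain's own error is unknown.

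Adipose tissue signals to other organs through proteins that it releases into the blood. Leptin is released mainly by white adipocytes in proportion to stored fat and restrains feeding, adiponectin and resistin are further hormones of mature adipocytes, and brown fat also makes neuregulin 4, fibroblast growth factor 21 and bone morphogenetic protein 8b, which act on liver, on fat itself and on its nerves. Insulin-like growth factor 1 is a growth hormone target made in many tissues, and growth differentiation factor 15 is a stress hormone that acts on the hindbrain.

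The promoters of the 3 members whose levels covaried are shown, because the 2 called relations among the 8 genes were between them. Each line gives the 250 bases before the gene's start as annotated by RefSeq on GRCm38.p6, in the direction of transcription. The Lep window was chr6:29059971-29060220 on the plus strand, the Nrg4 window was chr9:55283626-55283875 on the minus strand and the Retn window was chr8:3655520-3655769 on the plus strand. Capitals mark matches to 5 motifs searched on both strands.
Lep: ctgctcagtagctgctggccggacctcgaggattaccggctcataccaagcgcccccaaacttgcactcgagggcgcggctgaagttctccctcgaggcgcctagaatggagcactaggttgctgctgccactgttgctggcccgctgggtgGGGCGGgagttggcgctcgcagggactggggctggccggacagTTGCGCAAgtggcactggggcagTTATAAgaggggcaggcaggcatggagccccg
Nrg4: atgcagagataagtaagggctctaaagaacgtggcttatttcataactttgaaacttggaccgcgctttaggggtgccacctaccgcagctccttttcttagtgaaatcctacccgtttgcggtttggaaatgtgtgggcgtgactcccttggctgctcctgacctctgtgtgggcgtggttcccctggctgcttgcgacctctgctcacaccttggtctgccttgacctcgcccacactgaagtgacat
Retn: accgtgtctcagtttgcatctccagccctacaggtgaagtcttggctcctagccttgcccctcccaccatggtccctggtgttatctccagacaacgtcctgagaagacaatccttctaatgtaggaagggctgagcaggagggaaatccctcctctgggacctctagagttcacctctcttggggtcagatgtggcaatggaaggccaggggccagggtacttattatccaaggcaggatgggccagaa
The motifs were the TATA box (TATAA), the GC box (GGGCGG), the CCAAT box (CCAAT), a C/EBP site (TTGCNNAA) and the E-box (CACGTG). The Lep window held a GC box starting at position -98 from the gene's start, a C/EBP match at -55 and a TATAA match at -31 that overlapped a match on the opposite strand at -32. The Nrg4 and Retn windows held 0 matches to these 5 motifs. Among 32851 annotated promoter windows of this length, 22.8% held TATAA, 32.7% GGGCGG, 33.8% CCAAT, 9.56% TTGCNNAA and 6.02% CACGTG, so none of the matches was rare by itself. GC content was 65.6% in the Lep window, 53.2% in the Nrg4 window and 54.8% in the Retn window.

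The transcripts that define brown fat were present in every array. Ucp1, the uncoupling protein that defines brown fat, ranged from 14.82 to 15.69 over the BXD strains, and all 11 brown fat genes found on the array lay above background. Values are given in the rescaled units of the deposited table, in which every array has a mean of 8 and an SD of 2, and levels of different probe sets are not compared with each other. A probe set was called above background when its mean exceeded 7.94, the 95th percentile of 1128 olfactory receptor probe sets. The arrays correlated with each other at r between 0.968 and 0.987. Transcripts of adjacent or infiltrating tissues were also present, with 12 of 12 skeletal muscle genes above background and a mean level of that list from 9.74 in BXD65 to 13.31 in BXD97. The list of 10 macrophage genes had 9 above background and ranged from 8.92 in BXD48 to 10.63 in BXD61. Liver genes averaged 11.67 in BXD70 and 10.24 in DBA/2J, against 7.43 in C57BL/6J and a lowest BXD mean of 7.08. In bulk tissue, fewer cells of a type and less RNA per cell cannot be told apart.

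Of the 8 secreted factors, 6 had a mean above background, against 47.2% of all 41155 probe sets. Bmp8b and Gdf15 did not pass that limit. The range over BXD strains reached 1 unit for 3 of the 8 (Lep, Retn and Igf1), against 40.7% of all probe sets.

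Lep, which encodes leptin, varied more over strains than nearly every other transcript. Its level was 9.08 in BXD43, 11.20 at the median and 13.38 in BXD61, with a mean of 11.41 ± 1.12 (SD, n = 35 strains). The middle portion of the strains, between the lower and upper quartiles, spanned 10.68 to 12.37, so the spread did not rest on single arrays, and the range was still 3.82 after the highest and lowest strains were left out. Only 0.168% of all probe sets had a larger SD. The parental strains lay close together in the upper part of the range, at 12.18 in C57BL/6J and 11.94 in DBA/2J, and 11 strains exceeded both.

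Adipoq, which encodes adiponectin, had the opposite behaviour. It was 11.14 in BXD83, 11.32 at the median and 11.49 in BXD90, with a mean of 11.33 ± 0.09 (SD, n = 35). A larger SD was found for 99.5% of all probe sets. The parental values of 11.44 and 11.37 in C57BL/6J and DBA/2J lay inside the narrow BXD range.

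Retn, which encodes resistin, was the other widely varying hormone. It was 10.11 in BXD65, 11.90 at the median and 13.01 in BXD55, with a mean of 11.86 ± 0.68 (SD, n = 35), and 1.57% of probe sets had a larger SD. BXD92 at 10.43 was the next lowest strain and BXD87 at 12.73 the next highest. The C57BL/6J array read 13.40, above all 35 BXD strains, while DBA/2J read 12.14. Retn was the 1 member of 8 for which C57BL/6J fell outside the BXD range, against 6.71% of all probe sets, and DBA/2J fell outside it for 0 of 8 members, against 2.16%. The parental difference of -1.26 (DBA/2J minus C57BL/6J) was exceeded in size by 1.29% of probe sets, but with 1 array per parent it has no error.

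**Figure D1:**
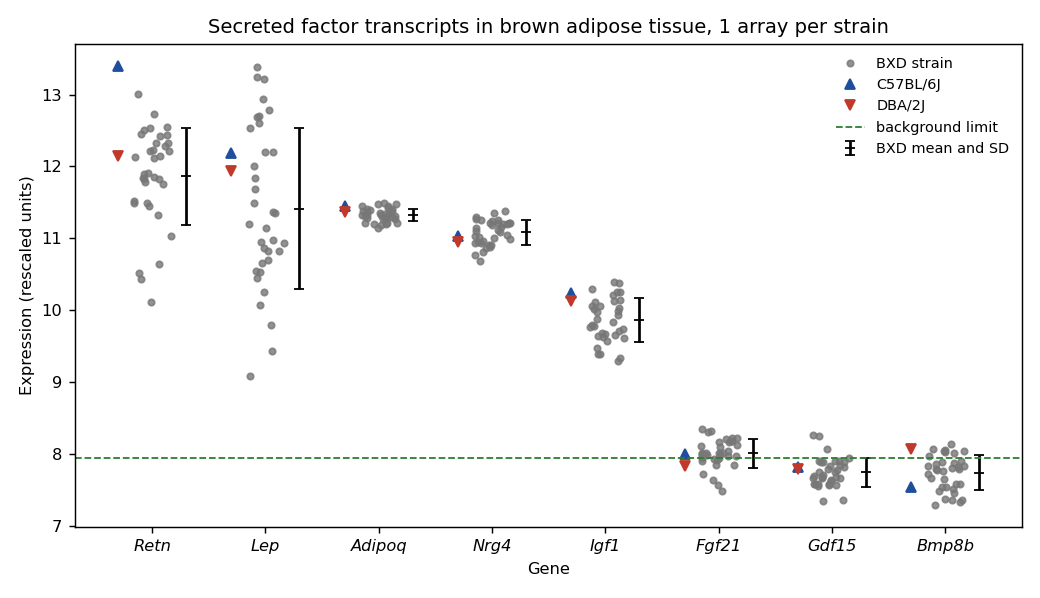
Expression of the 8 secreted factor transcripts in rescaled units (y axis) by gene (x axis). Grey points are the 35 BXD strains, triangles are the parental strains, black bars are the BXD mean and SD, and the dashed line is the background limit of 7.94. Lep and Retn spread over 4.30 and 2.90 units while Adipoq spans 0.34, and Gdf15 and Bmp8b lie mostly under the line.

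Nrg4 encodes neuregulin 4, a ligand of the receptor ERBB4 released by brown adipocytes. It ranged from 10.69 in BXD61 through a median of 11.11 to 11.38 in BXD95, with a mean of 11.08 ± 0.17 (SD, n = 35). This spread was ordinary, as 68.7% of probe sets had a larger SD. C57BL/6J read 11.04 and DBA/2J 10.94.

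Igf1, the insulin-like growth factor, was 9.30 in BXD89, 9.84 at the median and 10.39 in BXD61, with a mean of 9.86 ± 0.30 (SD, n = 35). The parental values of 10.24 and 10.13 in C57BL/6J and DBA/2J were in the upper part of that range. BXD70, whose array carried liver transcripts, read 10.25, below the 2 highest strains, BXD61 and BXD97.

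The remaining 3 factors were near the limit of detection. Fgf21, a hormone of fasting and cold, was 7.48 in BXD99, 8.01 at the median and 8.35 in BXD66, and 26 of 35 strains lay above background. Its mean was 8.01 ± 0.20 (SD, n = 35), with 8.01 in C57BL/6J and 7.83 in DBA/2J. Bmp8b, a factor that raises the response of brown fat to its nerves, was 7.29 in BXD87, 7.79 at the median and 8.14 in BXD61, and 8 of 35 strains lay above background. C57BL/6J read 7.54 and DBA/2J 8.07, and 25 strains lay between these values. Whether the probe set also takes up RNA of the paralog Bmp8a was not tested. Bmp8a read 7.97 ± 0.22 (SD, n = 35), with 8.09 in C57BL/6J and 7.98 in DBA/2J, and had r = -0.03 with Bmp8b over the BXD strains. Gdf15, the stress hormone, was 7.35 in BXD48, 7.71 at the median and 8.26 in BXD61, and 4 of 35 strains lay above background.

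The question of whether the factors varied together was addressed over the 35 BXD strains. Of 28 pairs, 2 were called, and both involved Lep. A pair was called when the limma slope of each gene on the other had an adjusted p (Benjamini-Hochberg, over all 41154 probe sets tested) under 0.05 in both directions of fitting.

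Nrg4 was lower where Lep was higher. BXD61, the strain with the highest Lep, had the lowest Nrg4, and BXD43, with the lowest Lep, had the second highest Nrg4 at 11.35. Pearson's r was -0.63 (permutation p = 0.00011, two-sided) and Spearman's rho was -0.62 (permutation p = 0.0001). Nrg4 changed by -0.10 ± 0.02 units (SE) per unit of Lep, and the larger of the limma adjusted p-values was 0.0135. The call held on leaving out each strain in turn, with r from -0.68 to -0.58 and a highest adjusted p in limma of 0.0488 without BXD61. Leaving out BXD43 and BXD61 together gave r = -0.53 with an adjusted p in limma of 0.0612. The macrophage gene list moved with both genes, and with its mean as a covariate the partial r was -0.39 with an adjusted p in limma of 0.58.

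Retn was also lower where Lep was higher. The 4 strains with the lowest Retn, BXD65, BXD92, BXD85 and BXD69, all lay above the median of Lep, at 12.79, 12.70, 12.19 and 13.22. Pearson's r was -0.57 (permutation p = 0.00036, two-sided) and Spearman's rho was -0.54 (permutation p = 0.00083). Without BXD43 and BXD61, the strains farthest from the median of Lep, r was -0.64, and without BXD65 and BXD92, the strains farthest from the median of Retn, it was -0.51. Retn changed by -0.34 ± 0.08 units per unit of Lep, and the larger limma adjusted p was 0.0472. That call was close to the threshold. It was lost on leaving out any of 23 strains, with a highest adjusted p in limma of 0.124 without BXD69, and r stayed between -0.62 and -0.53. With the 2 strains farthest from the median of the covariate left out of each fit, the larger adjusted p in limma was 0.187. After quantile normalization r was -0.55 with an adjusted p in limma of 0.0614. With the macrophage list as a covariate the partial r was -0.49 with an adjusted p in limma of 0.229, and with the skeletal muscle list it was -0.65 with 0.00699. C57BL/6J, with Lep at 12.18 and Retn at 13.40, lay far above the line fitted to the BXD strains.

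Igf1 and Lep had r = 0.43 (permutation p = 0.0104, two-sided) and rho = 0.33 (permutation p = 0.0524), but the larger limma adjusted p of 0.164 missed the threshold. Without BXD43 and BXD61 its r was 0.36, and with the macrophage list as a covariate it was 0.11. Retn and Nrg4, both lower at high Lep, had r = 0.11 with each other. Adipoq had r between -0.27 and 0.28 with the other members, and no pair without Lep was called.

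**Figure D2:**
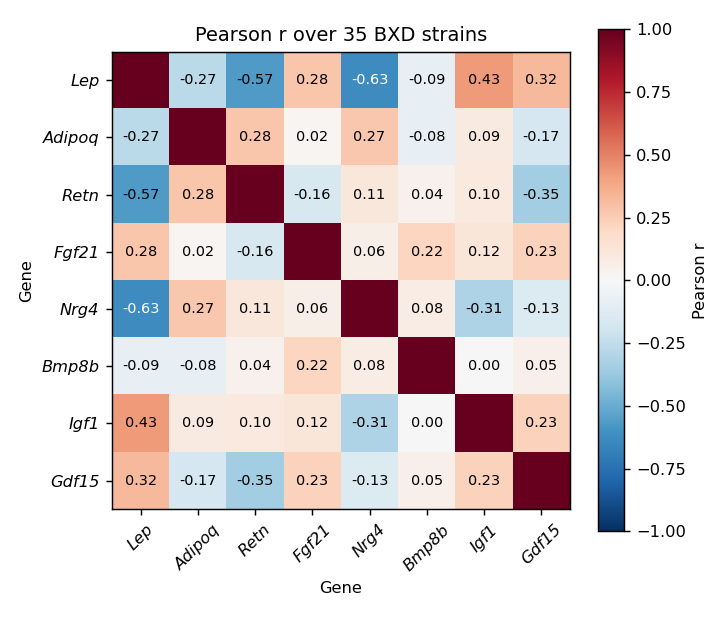
Pearson r over the 35 BXD strains for each pair of the 8 secreted factor transcripts (genes on both axes, colour from -1 to 1). The most negative cells are Lep with Nrg4 (-0.63) and Lep with Retn (-0.57), and the most positive is Lep with Igf1 (0.43).

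**Figure D3:**
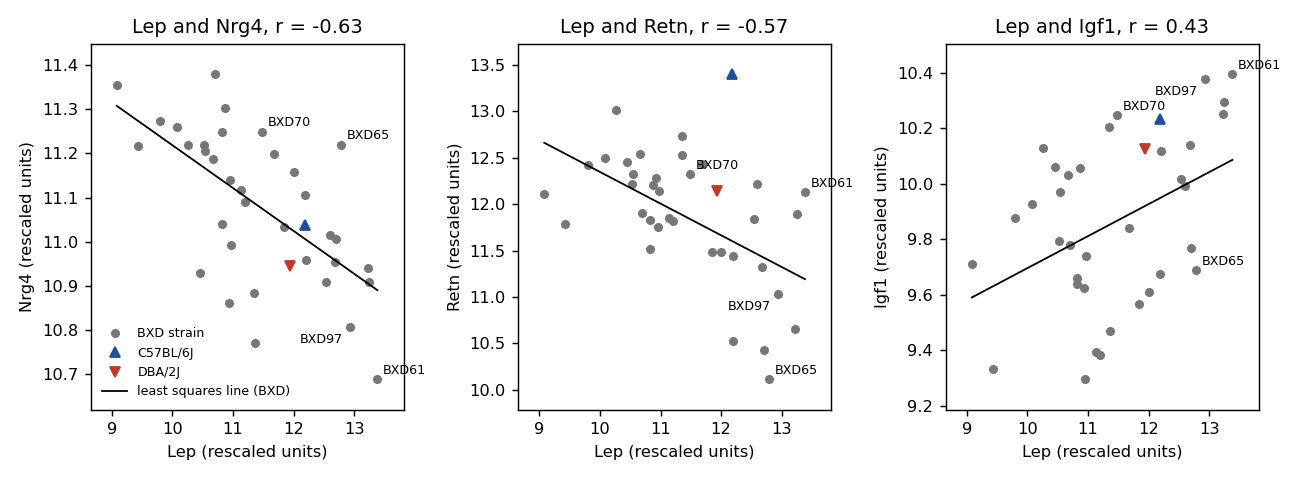
Nrg4, Retn and Igf1 (y axes) against Lep (x axis), all in rescaled units. Grey points are BXD strains, triangles are the parental strains, which were not used for the fitted line, and 4 strains named in the text are labelled. Nrg4 and Retn fall with Lep, and C57BL/6J lies far above the Retn line.

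Each member was then used as a covariate against every other probe set, and a transcript was called when its limma slope had an adjusted p (Benjamini-Hochberg) under 0.05. Lep had 2008 calls, 4.88% of 41154 probe sets, with 981 rising and 1027 falling with it, or 789 and 1234 after centring each array on its median. The count stayed between 1415 and 2203 on leaving out any strain, and it was 147 with the macrophage list as a covariate. Adipoq had 0 calls (0.0%). An unadjusted limma p under 0.05 was found for 2171 probe sets, or 5.28%, near the share that this threshold gives by chance. With 1 array per strain, the part of array error in the narrow Adipoq spread (SD 0.09) is unknown. Retn had 174 calls (0.423%), and the count ran from 53 without BXD65 or BXD69 to 292 without BXD61. Nrg4 had 376 calls (0.914%), with 78 without BXD97 and 914 without BXD87. Igf1 had 313 calls (0.761%), with 45 without BXD61 and 538 without BXD70. Counts for these 3 members thus rested in part on single strains, and with the macrophage list as a covariate both Nrg4 and Igf1 had 0 calls.

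The counts of the 3 dim members depended on how the arrays were scaled. Fgf21 had 2104 calls (5.11%), 1363 rising and 741 falling, but after centring each array on its median the split was 311 rising and 754 falling, and after quantile normalization 449 and 236. Without its 2 farthest strains, BXD83 and BXD99, Fgf21 had 19 calls. Bmp8b had 119 calls (0.289%), 32 rising and 87 falling, 1 call, falling, after quantile normalization and 2, both falling, after centring. Gdf15 had 2 calls (0.00486%), both rising, 1 after quantile normalization and 0 after centring.

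The transcript that followed Lep most closely was Npr3, the clearance receptor for natriuretic peptides, with r = 0.924 over 35 strains (limma adjusted p = 1e-11). It was followed by 1700047G03Rik at r = 0.903 and Prkcdbp, a caveola-associated protein, at r = 0.873. The most negative were Stt3b, a subunit of the enzyme that glycosylates proteins in the endoplasmic reticulum, at r = -0.847, Stxbp2, a syntaxin-binding protein of vesicle fusion, at r = -0.827, and Zfyve26 at r = -0.818. Retn was followed most closely by Cyp2e1, a cytochrome P450, at r = 0.894, then by Stxbp2 at r = 0.753 and Smoc1 at r = 0.745. Stxbp2 lies next to Retn in the RefSeq gene order of GRCm38.p6, with 11771 bases and 0 protein-coding genes between them, and among 32 such pairings of a transcript and a member that could be placed by RefSeq, it was the 1 of neighbours. The genes lowest where Retn was high were Pygb, the brain form of glycogen phosphorylase, at r = -0.798, Tacc1 at r = -0.794 and Ttc7b at r = -0.769.

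Nrg4 was followed by Por, the reductase that supplies electrons to cytochromes P450, at r = 0.762, Sgta at r = 0.727 and Kcnk3, a potassium channel of thermogenic adipocytes, at r = 0.717. Its most negative transcripts were Eepd1 at r = -0.771, Dcbld2 at r = -0.763 and Adamts5, a matrix protease, at r = -0.737. Igf1 was followed by Ccnd2, a cyclin of the G1 phase, at r = 0.757, Olfml1 at r = 0.731 and Cachd1 at r = 0.721. Its most negative transcripts were Dnaja3, a mitochondrial chaperone, at r = -0.789, Cox6b1, a subunit of cytochrome c oxidase, at r = -0.774, and Ghitm, a mitochondrial inner membrane protein, at r = -0.771. The nearest transcripts to Fgf21 were 4930556L07Rik at r = 0.747, Nckap5l at r = 0.738 and Il13 at r = 0.731, and the most negative were Tcp11l2 at r = -0.739, Ubr7 at r = -0.699 and Fam208b at r = -0.688. For Adipoq no transcript passed the limma test, and the extremes were Golga1 at r = 0.603, Lpar6 at r = 0.599 and Vps33a at r = 0.595 against Pttg1 at r = -0.621, Gli3 at r = -0.561 and Camta1 at r = -0.551.

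Lists of related genes were read in the same fits, and each count stands against the share of all probe sets called with that member, which was 4.88% for Lep, 0.423% for Retn, 5.11% for Fgf21, 0.914% for Nrg4, 0.761% for Igf1 and 0.00486% for Gdf15. The lists were chosen with earlier results of these data known, so the counts describe the lists and do not test them. Among 10 genes of white fat and fat expansion, 5 rose with Lep and 0 fell, with a median r of 0.40 against 0.005 over all probe sets, of which 4.88% were called. Besides Npr3 the 5 were Mest, an imprinted gene that rises as adipocytes enlarge (r = 0.826), Nnat, the imprinted neuronatin gene (r = 0.739), Sfrp5, a secreted modulator of Wnt signals (r = 0.622), and Bmp3 (r = 0.557). The other 5 genes of the list were not called with Lep. They were Hoxc8 (r = 0.249), Hoxc9 (r = 0.111), Tcf21 (r = 0.092), Wt1 (r = -0.102) and Hoxc10 (r = -0.184), of which only Hoxc8 and Wt1 were above background. In the fit with the macrophage list as a covariate, 3 of the 10 were called. With Retn, 2 of these 10 fell, Npr3 (r = -0.599) and Mest (r = -0.569). With Nrg4, 2 fell, Bmp3 (r = -0.649) and Npr3 (r = -0.589). Among 11 brown fat genes, 2 fell with Lep, namely Kcnk3 (r = -0.683) and Cidea, a lipid droplet protein of brown adipocytes (r = -0.628). The other 9 were not called with Lep, and the median r of the 11 was -0.195. The r with Lep was positive for 3 of them, Dio2 (r = 0.153), Adrb3 (r = 0.126) and Ucp1 (r = 0.066). The r with Nrg4 was positive for 11 of these 11, with a median of 0.28 against 0.017 over all probe sets, and Kcnk3 alone passed the limma test. Ucp1 was called with none of the 8 members. Of 12 lipogenic genes, 1 was called with Lep, the fatty acid elongase Elovl6 (r = -0.608), a share near the 4.88% of all probe sets. The r of these genes with Retn was positive for 12 of 12, with a median of 0.31 against 0.006 over all probe sets, and 0 passed the test. Skeletal muscle genes likewise had a positive r with Retn for 12 of 12, with a median of 0.28 and 0 calls.

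The receptor list for the members held 17 genes, of which 16 were above background, and 3 were called with Lep (4.88% of all probe sets), 1 with Retn (0.423%) and 3 with Nrg4 (0.914%). Klb, the co-receptor through which FGF21 signals, moved with 3 of the members. It fell with Lep (r = -0.749, limma adjusted p = 6.16e-05) and rose with Retn (r = 0.682, limma adjusted p = 0.00632) and with Nrg4 (r = 0.552, limma adjusted p = 0.0475). The Klb level itself ran from 11.15 in BXD69 to 12.51 in BXD62. With Lep the insulin receptor gene Insr also fell (r = -0.673), and Cdh13, the T-cadherin that binds adiponectin, rose (r = 0.550). With Nrg4, Erbb4, its own receptor gene, rose (r = 0.543, limma adjusted p = 0.0475), as did the adiponectin receptor gene Adipor2 (r = 0.606). Erbb4 ran from 8.22 in BXD66 to 10.51 in BXD90, with 9.92 in C57BL/6J and 8.55 in DBA/2J. With the macrophage list as a covariate, Nrg4 had 0 calls over all probe sets, so its 3 receptor calls were lost. No receptor was called with Adipoq, Fgf21, Bmp8b, Igf1 or Gdf15.

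Of 12 binding and partner proteins, 2 rose with Lep, Igfbp7 (r = 0.691) and Igfbp5 (r = 0.483), and 1 fell, Erp44 (r = -0.626), the chaperone that holds adiponectin in the secretory pathway, against 4.88% of all probe sets called. Igfbp5 fell with Nrg4 (r = -0.671). With Igf1, 0 of these 12 and 0 of 7 genes of growth hormone signalling were called, which is near the 0.761% of all probe sets and says nothing particular about either list. Among 15 targets of the integrated stress response, 2 were called with Lep (4.88% of all probe sets). Psat1 (r = 0.724) and Phgdh (r = 0.688), both enzymes of serine synthesis, rose with Lep, and Psat1 fell with Nrg4 (r = -0.628). The median r of the 15 with Lep was 0.156, and 10 had a positive r. With Fgf21 0 of the 15 were called (5.11% of all probe sets), and with Gdf15 also 0 (0.00486%).

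Of 31 other secreted factors of fat, 7 rose with Lep and 1 fell, against 4.88% of all probe sets called, with a median r of 0.27. Those rising with the lowest adjusted p in limma were Nucb2, the nesfatin precursor (r = 0.608), Lcn2, a siderophore-binding lipocalin (r = 0.578), and Adm, the vasodilator adrenomedullin (r = 0.559, mean level 7.45, not above background), while Nampt, an enzyme of NAD synthesis, fell (r = -0.540). Without BXD61 the count of calls was 5, and with the macrophage list as a covariate it was 0. With Nrg4, 0 rose and 4 fell (0.914% of all probe sets called), namely Metrnl (r = -0.701), Fstl1 (r = -0.674), Epdr1 (r = -0.586) and Retnla (r = -0.578). Cfd, the adipsin gene, was the 1 of 31 that rose with Retn (r = 0.611). Chrdl1 (r = 0.607), a BMP antagonist, and Agt (r = 0.559), the angiotensin precursor, rose with Igf1. Agt was highest in BXD70, whose array carried liver transcripts, at 9.44 against a BXD mean of 8.39. The part of liver RNA in the relation of Agt with Igf1 was not tested.

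**Figure D4:**
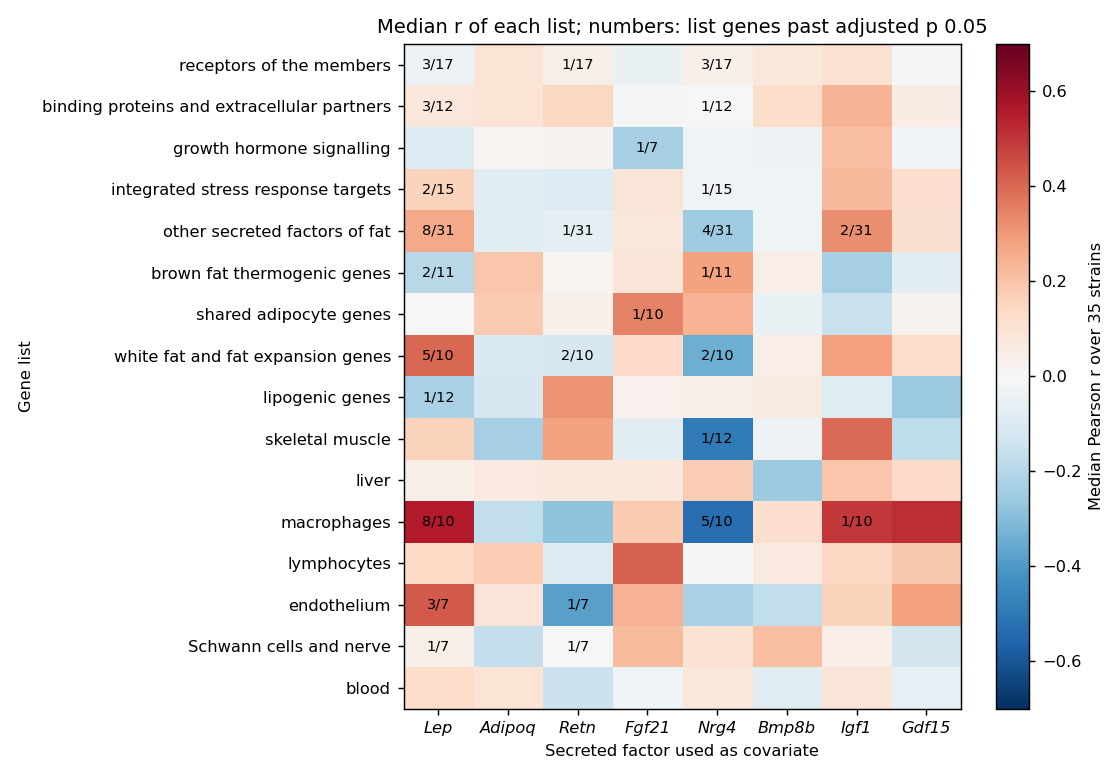
Median Pearson r over 35 BXD strains (colour) of the genes of 16 lists (y axis) with each secreted factor (x axis), with the number of genes past a limma adjusted p of 0.05 over the number found. Macrophage genes are the most positive list for Lep (8 of 10 called) and the most negative for Nrg4 (5 of 10 called).

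Markers of other cell types moved with several members. Of 10 macrophage genes, 8 rose with Lep (4.88% of all probe sets called), with a median r of 0.56, led by Itgam, an integrin subunit (r = 0.628), C1qb, a complement component (r = 0.598), and Mrc1, the mannose receptor (r = 0.576). The count was 4 without BXD61, the strain with the highest macrophage list mean, and 2 without BXD43 and BXD61. With Nrg4, 5 of the 10 fell (0.914% of all probe sets called), with a median r of -0.53, led by Itgam (r = -0.640), Mrc1 (r = -0.618) and C1qa (r = -0.615). That count was 0 without BXD61 and 0 with the skeletal muscle list as a covariate. For Igf1 the median r was 0.50 and Lyz2, the lysozyme gene of myeloid cells, was the 1 gene called (r = 0.597). For Gdf15 the median r was 0.52 and 0 were called. BXD61 was the highest strain for Lep, Igf1, Bmp8b and Gdf15 and the lowest for Nrg4. The part of macrophage RNA in these relations was not tested beyond the covariate fits given above.

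**Figure D5:**
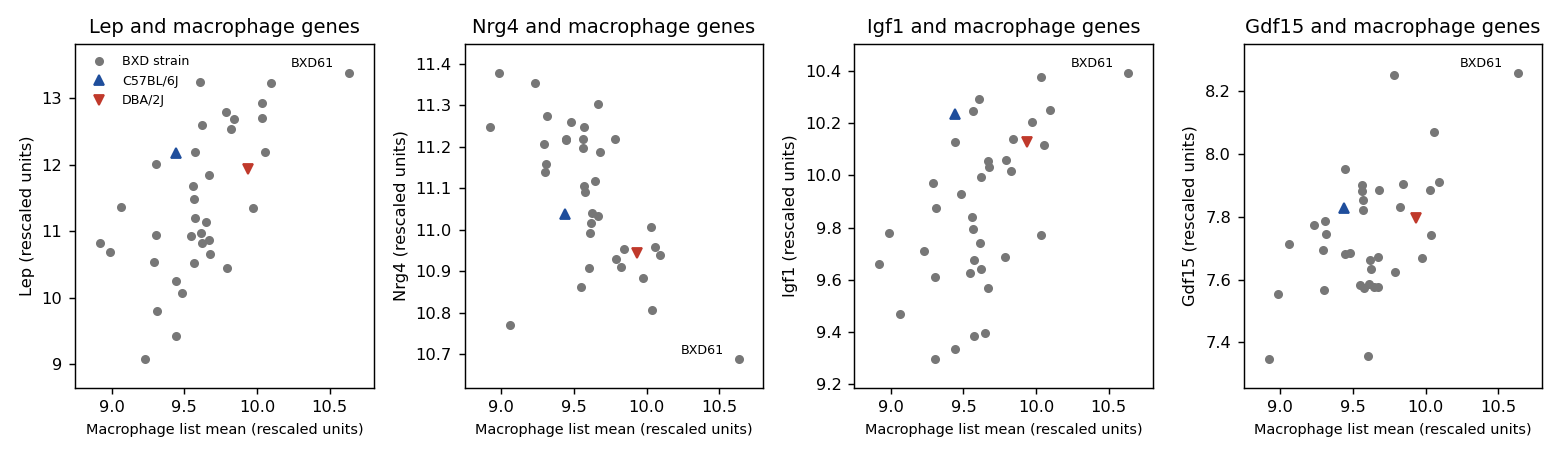
Lep, Nrg4, Igf1 and Gdf15 (y axes) against the mean of the 10 macrophage genes (x axis), all in rescaled units, with 35 BXD strains in grey and the parental strains as triangles. BXD61, labelled, stands at the right edge of each panel at a list mean of 10.63, with the lowest Nrg4 and the highest value of the other 3 genes.

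Of 7 endothelial genes, 3 rose with Lep (4.88% of all probe sets called), namely Pecam1 (r = 0.670), Cdh5 (r = 0.633) and Vwf (r = 0.638), and Pecam1 fell with Retn (r = -0.610). S100b, a calcium-binding protein of Schwann cells that adipocytes also make, rose with Lep (r = 0.645) and fell with Retn (r = -0.756). Skeletal muscle genes had a median r of -0.49 with Nrg4, where Myh1, a fast myosin, was the 1 of 12 called (r = -0.566), and 0.40 with Igf1, where 0 were called. With the muscle list as a covariate, the partial r of Lep with Nrg4 was -0.64 and of Lep with Retn -0.65, and Nrg4 had 75 called transcripts and Igf1 40. Of 9 lymphocyte genes, 1 was above background and 0 were called with any member, and the same held for calls among the 12 liver and 3 blood genes. The r of the lymphocyte genes with Fgf21 was positive for 9 of 9, with a median of 0.41 against 0.028 over all probe sets. Fgf21 itself read near background. Of 10 shared adipocyte genes, 1 was called with Fgf21, Plin1 (r = 0.569), a share near the 5.11% of all probe sets, and 0 with the other members.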

How the data were processed

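RNA from brown adipose tissue of 35 BXD strains, C57BL/6J and DBA/2J was hybridised to 37 Affymetrix MoGene 2.0 arrays, 1 per strain. The authors deposited 1 table of normalized expression scores, in which each array was rescaled to a mean of 8 and an SD of 2. The submitters' processing notes name Affymetrix Expression Console. The summary method, background correction, log base and genome build are not given in the sources used here, so slopes and differences are in rescaled units and not folds. Arrays give no read depth, and their number limits the precision.

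Of 41345 probe sets, 190 array controls were left out and 41155 analysed, and 0 columns of values were unused. Each gene was read from its brightest probe set. The members and gene lists were chosen with earlier results of these data known. Each member was a covariate in a limma 3.58.1 fit (R 4.3.3) over 35 BXD strains, with Benjamini-Hochberg adjustment over all probe sets but the member's own, after testing on simulated data. Pair correlations had two-sided tests with 100000 permutations, which were run in numpy, with ranks from scipy 1.17.1. Named genes were all members, the 3 highest and 3 lowest r per member above background, and up to 3 genes per list and member by adjusted p, and further called genes were named after their values were seen. Rarres2, Cpt1b, Adgre1, Hba-a1, Hbb-bs and Hbb-bt were not found by symbol, but Emr1, the older symbol of Adgre1, was. Promoters came from RefSeq GRCm38.p6. Alternatives were other scalings, covariates, strain subsets and filters, of which the macrophage covariate and the alternatives for list counts were chosen after seeing the data. Tables were handled with Python 3.11.15, numpy 2.4.6, pandas 2.3.3 and matplotlib 3.10.9.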

Additional observations from a re-analysis of the deposited data

How the results depend on the processing

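The range of at least 1 unit (3 members) did not change under any alternative run, and 5 members were above background at the 99th percentile limit of 8.82. The parental differences moved by less than 1 SD of the BXD strains. That says little about them, because median centring shifts all genes of an array alike and each member had 1 probe set to average. Their error stayed unknown with 1 array per parent. The counts of called transcripts moved more. For Lep the 2008 calls became 147 with the macrophage list as a covariate and 1242 without the 2 farthest strains. For Retn the 174 became 312 with the muscle list and 48 with the macrophage list as a covariate, 305 with the parental strains, 54 on ranks, 33 without the 2 farthest strains and 352 without dim probe sets. For Fgf21 the 2104 became 685 after quantile normalization, 1065 after median centring, 19 without the 2 farthest strains and 1253 without dim probe sets. For Nrg4 the 376 became 75 with muscle and 0 with macrophages as a covariate, 579 without the 2 farthest strains and 782 without dim probe sets. For Bmp8b the 119 became 1 after quantile normalization, 2 after centring, 16 without BXD70, 64 with the parental strains, 12 on ranks, 1 without the 2 farthest strains and 9 after averaging probe sets by gene. For Igf1 the 313 became 40 with muscle and 0 with macrophages as a covariate, 538 without BXD70, 4 without the 2 farthest strains and 837 without dim probe sets. For Gdf15 the 2 became 1 after quantile normalization, 0 after centring, 83 with muscle and 0 with macrophages as a covariate, 1 on ranks, 1 without the 2 farthest strains, 16 with the mean of probe sets and 50 without dim probe sets. The 2 called pairs became 1 after quantile normalization, without BXD70, with the parental strains or on ranks, and 0 with the macrophage list or without the 2 farthest strains. Of the list counts, the 8 macrophage genes with Lep became 2 without the 2 farthest strains. The 5 white fat and fat expansion genes with Lep became 3 with the macrophage list. The 8 other secreted factors with Lep became 0 with the macrophage list and 3 without the 2 farthest strains. The 5 macrophage genes with Nrg4 became 3 after quantile normalization and 0 with the muscle list. The cause of these moves was not tested.

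On leaving out each strain in turn, counts ran from 1415 to 2203 for Lep, 0 to 1 for Adipoq (1 without BXD83), 53 to 292 for Retn, 594 to 2571 for Fgf21, 78 to 914 for Nrg4, 3 to 335 for Bmp8b, 45 to 538 for Igf1 and 0 to 73 for Gdf15. Moves by over 1.5 times were, for Retn, 84 without BXD45, 79 without BXD55, 107 without BXD56, 292 without BXD61, 53 without BXD65, 53 without BXD69, 75 without BXD85, 76 without BXD92, 97 without BXD97; for Fgf21, 1394 without BXD51, 1297 without BXD62, 937 without BXD66, 594 without BXD83, 810 without BXD99; for Nrg4, 143 without BXD61, 240 without BXD79, 914 without BXD87, 238 without BXD95, 78 without BXD97; and for Igf1, 45 without BXD61, 171 without BXD66, 121 without BXD69, 538 without BXD70, 118 without BXD89, 106 without BXD90, 114 without BXD97. The Bmp8b count moved so without any of 21 strains (BXD50, BXD51, BXD55, BXD56, BXD62, BXD65, BXD68, BXD70, BXD80, BXD83, BXD84, BXD85, BXD87, BXD92, BXD95, BXD96, BXD97, BXD98, BXD99, BXD101, BXD103) and the Gdf15 count without any strain but BXD50, BXD64, BXD70, BXD80. Called pairs ran from 1 to 2, and Lep with Retn kept its call only without BXD43, BXD48, BXD50, BXD61, BXD64, BXD68, BXD79, BXD84, BXD87, BXD89, BXD90, BXD96. Macrophage genes called with Lep ran from 4 (without BXD61) to 9, white fat and fat expansion genes from 4 to 5, and other secreted factors from 5 (without BXD61) to 9. Macrophage genes called with Nrg4 ran from 0 to 9 (3 without BXD48, 0 without BXD61, 3 without BXD69, 3 without BXD79, 3 without BXD81, 3 without BXD84, 9 without BXD87, 2 without BXD95, 1 without BXD97). The range count stayed at 3. The correlations of the 2 called pairs did not change sign. Of 1228 single values, 31 crossed the threshold, and all of these belonged to the 2 called pairs. Leaving out a strain gave 23 of them, all for Lep with Retn. The rest of the 1228 included all values of the pairs that were never called. They also included 24 values of parental differences, which had no test and no threshold to cross. No paired analysis was possible because each strain had 1 array and replicate numbers were only names.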
